A study of Drosophila melanogaster with 3 samples.

Results

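The Cpr genes of Drosophila melanogaster encode cuticle proteins that carry the Rebers and Riddiford domain, a stretch known to bind chitin. Epidermal cells secrete these proteins late in embryogenesis and again before each moult, and chitin fibres and Cpr proteins together make up much of the insect procuticle. The genes are named for their cytological position, and many stand side by side in clusters. All protein-coding genes of the Ensembl annotation whose symbol is Cpr followed by a number and a letter were taken. This gave 70 of 13945 protein-coding genes, with 35 on arm 3L, 21 on 2R, 5 on 2L, 5 on 3R and 4 on X. As a group they are short, with a median length of 1094 bp against 2166 bp over all protein-coding genes, and 63 of them have 1 annotated transcription start site (TSS).

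The question put to these genes was where the CG8944-eGFP fusion protein was found near them by chromatin immunoprecipitation with sequencing (ChIP-seq). The only group was a transgenic line that stably expresses CG8944 joined at its C terminus to GFP, studied as embryos aged 0 to 24 h with both sexes pooled, in 3 biological replicates. Chromatin sonicated to between 200 and 800 bp was recovered with an anti-GFP antibody, and no group without the fusion protein was analysed here. Whole embryos were used, so binding in a few epidermal cells and weak binding in many cells cannot be told apart, and the peak lists hold no expression values against which the cell types present could be checked.

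Each entry of a peak list has a summit, the position of its highest enrichment, and a signal value given by the authors' peak caller, whose scale is not stated. Signal was therefore used only to rank entries within 1 list, with rank 1 for the strongest. The replicate lists held 30000, 30000 and 27393 entries of peaks together with background for replicates 1, 2 and 3, and the list of the pooled replicates held 23886. Of the pooled entries, 3511 had passed the authors' test of reproducibility between replicates and are called reproducible here, with signals of 107 to 3177. No list gives a read count, so the depth behind these values is unknown.

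No Cpr gene had a reproducible CG8944-eGFP summit within 500 bp of a TSS. Among all protein-coding genes 17.1% had one (2381 of 13945), and at that share 12 of the 70 Cpr genes would have been counted. The replicates gave the same count on their own. When the 3511 strongest entries of each replicate were used, 0 Cpr genes had a summit at a TSS in replicate 1, 0 in replicate 2 and 0 in replicate 3. The corresponding shares of protein-coding genes were 16.8%, 16.2% and 17.2%, or 16.8% ± 0.503 (SD, n = 3).

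Gene structure differed between the Cpr genes and the rest and moved with this count. A head-to-head neighbour, a TSS on the other strand within 1000 bp that points away, was found at 7 Cpr genes (10%) and at 36.3% of protein-coding genes. Among genes with 1 annotated TSS, 0 of 63 Cpr genes and 13.2% of protein-coding genes had a reproducible summit. Among those that also lacked a head-to-head neighbour, a limit chosen after seeing the data, it was 0 of 57 Cpr genes and 6.24% (414 of 6636), a share at which 3.56 genes would have been counted. The 0 thus stood beside a much smaller background share once genes were limited by TSS number and head-to-head neighbour. Gene length was not matched. The part of gene structure in the count beyond these values was not tested.

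Distances did not depend on the window. The median distance from a Cpr TSS to the nearest reproducible summit was 18.8 kb, with the middle 50% of genes between 9904 and 29968 bp, whereas the median over all protein-coding genes was 8.96 kb. Over protein-coding genes with 1 TSS and no head-to-head neighbour it was 13.8 kb. Measured to the 3511 strongest entries of replicates 1, 2 and 3 in turn, the median over the Cpr genes was 17.6, 20.2 and 20 kb (mean 19.3 kb ± 1.44, SD, n = 3), and over all protein-coding genes 9.17, 9.18 and 8.66 kb (9 kb ± 0.294). The difference between these medians was larger than the spread between replicates in each set. That spread is over peak lists for the same genes and does not measure the variation between genes. The difference also depended on which peaks were counted. With the 1755 reproducible peaks of higher signal the medians were 22.9 kb for Cpr genes and 19.6 kb for protein-coding genes. Within 2 kb of a reproducible summit lay 1 Cpr gene (1.43%, against 24.1% of protein-coding genes), within 10 kb 18 (25.7% against 52.5%), and within 50 kb 68 (97.1% against 89%). The Cpr genes were therefore fewer, as a share, at the near end of the range and also at its far end.

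**Figure D1:**
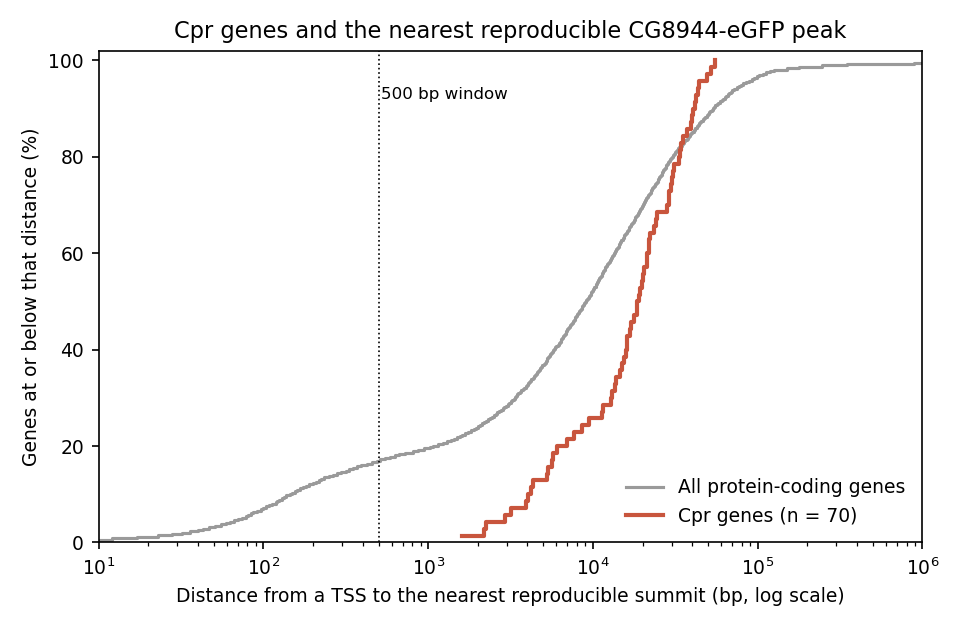
Cumulative share of genes (vertical axis, percent) against the distance from a TSS to the nearest reproducible summit (horizontal axis, bp, log scale), for the 70 Cpr genes and all 13945 protein-coding genes; the dotted line marks 500 bp. The curve of the Cpr genes starts at 1599 bp, where the curve of all protein-coding genes is already above 19.7%, and crosses it beyond 20 kb.

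The Cpr genes nearest to a reproducible summit belonged to few places. Cpr76Ba was the nearest, with a summit 1599 bp downstream of its TSS, and the same peak was also the nearest one to Cpr76Bb at 2916 bp and to Cpr76Bc at 4212 bp. Another peak lay 2174 bp upstream of Cpr65Eb and 2243 bp upstream of Cpr65Ec. Cpr31A was 3191 bp from the peak at Pen, which encodes an importin alpha (signal 242), Cpr66Cb 3934 bp from the peak nearest to CG7083 (signal 142), and Cpr78Cc 4014 bp from that at CG11309 (signal 639). For most Cpr genes the nearest peak thus had another gene as its nearest TSS. In all, the 70 genes shared 38 nearest peaks. Of these, 25 lay within 500 bp of a TSS of any annotated gene, non-coding genes included, and 2 had a Cpr TSS as the nearest. Over the whole list, 1812 of 3511 reproducible peaks lay within 500 bp of a protein-coding TSS, a narrower measure than the one used for the 38.

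At the other end of the range stood Cpr50Ca, 54.8 kb from the peak at fl(2)d, which encodes a subunit of the RNA m6A methylation complex (signal 299). Cpr60D followed at 51.7 kb from the peak at Adck1, a gene of the aarF-domain kinase family (signal 763). Cpr49Ac and Cpr49Ad were 49 and 44.2 kb from the peak at DUBAI, a deubiquitinase gene (signal 688). Cpr genes in clusters and on their own did not stand apart in this measure: the median was 19 kb over 45 clustered genes (range 1.6 to 49) and 18.6 kb over 25 others (3.19 to 54.8).

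Weak entries were present at some Cpr starts. In the pooled list 16 of 70 Cpr genes (22.9%) had a summit within 500 bp of a TSS, against 45% of protein-coding genes. All were outside the reproducible set, with signals from 38.3 to 64.8 in a list whose lowest value is 38. Their deposited −log10 q-values ran from 0.0204 to 0.602, whereas the lowest among reproducible peaks was 2.34. Reproducible signals began at 107, and those of pooled entries outside the set ended at 107. Lower values than reproducible peaks thus follow from lying outside that set. With such q-values, in lists that hold peaks together with background, the entries at Cpr genes cannot be told apart from background. Weak entries at all protein-coding genes reached 2.33, so those at Cpr genes lay in the lower part of the weak range.

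The replicates differed in how many Cpr genes had such an entry. Replicate 1 had one at 16 genes (22.9%, against 49.9% of protein-coding genes), replicate 2 at 28 (40%, against 44.9%) and replicate 3 at 14 (20%, against 46.6%). The mean was 27.6% ± 10.8 for the Cpr genes and 47.1% ± 2.52 for protein-coding genes (SD, n = 3). The share at Cpr genes lay below the background in every replicate, and in replicate 2 it came close to it. Only 4 Cpr genes (5.71%) had a summit at a TSS in all 3 replicates, against 30.7% of protein-coding genes. A further 12 had one in 2 replicates, 22 in 1 replicate and 32 (45.7%) in none, and those 32 had none in the pooled list either. Among protein-coding genes 34.9% had none in any replicate.

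**Figure D2:**
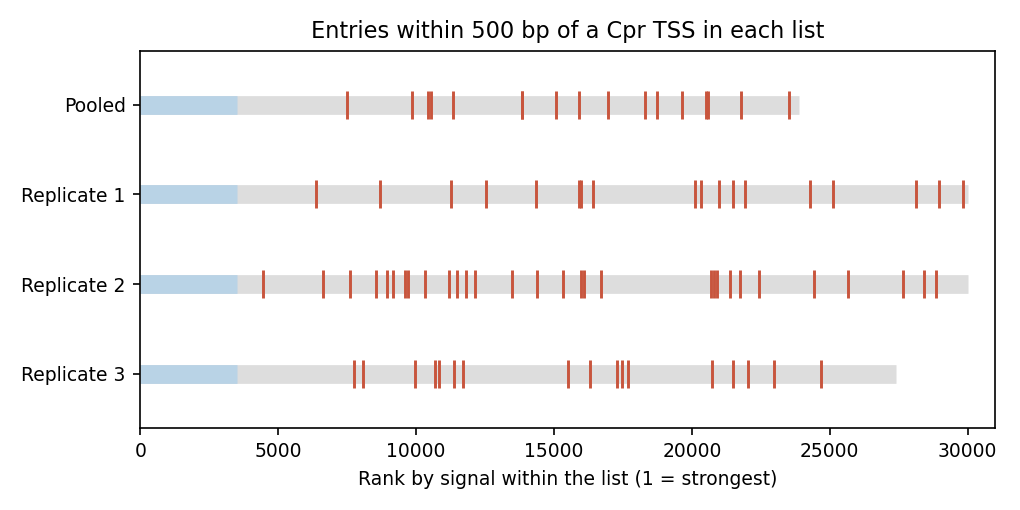
Entries within 500 bp of a Cpr TSS, each drawn as a vertical line at its rank by signal (horizontal axis, 1 for the strongest) in the pooled list and in replicates 1, 2 and 3; each grey bar is as long as its list, and its blue part holds the 3511 strongest entries. No line falls in a blue part, and the best rank is 4461, in replicate 2.

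The 4 Cpr genes with an entry in every replicate were Cpr23B, Cpr35B, Cpr49Ag and Cpr73D. At Cpr49Ag the summits lay at one place, 99, 110 and 110 bp downstream of the TSS in replicates 1, 2 and 3, with signals of 16.2, 24.3 and 14.2. Their ranks were 20994, 9147 and 21502 and their −log10 q-values 0.141, 0.366 and 0.0705. These entries were thus weak in all replicates and may be background. Cpr35B had summits 394, 290 and 481 bp downstream, with signals of 21.7, 26.1 and 21.7 and ranks of 11253, 7614 and 8070. It was the Cpr gene with the strongest pooled entry, which had a signal of 64.8, rank 7495 and a position 461 bp downstream. A second pooled entry of Cpr35B lay upstream, at −449 bp (signal 39.7), and it recurred at −446 bp in replicate 1 and −449 bp in replicate 3.

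Cpr23B and Cpr73D met the count in a different way. At Cpr23B the summit was upstream at −334 bp in replicate 1 (signal 14), 280 bp downstream in replicate 2 (19.6) and 414 bp downstream in replicate 3 (13.8), so the replicates did not mark one site. At Cpr73D the summits of replicates 1 and 3 lay 167 and 159 bp downstream of the TSS at the 5′ end of the gene, with signals of 28.2 and 19 and ranks of 6388 and 10848. Replicate 2 had its stronger entry 105 bp downstream of another TSS of the gene (signal 23.7, rank 9701) and a weaker one at −206 bp from the 5′ TSS (17.2, rank 21757). A second entry of replicate 3 lay at −148 bp from that other TSS (15.6, rank 17469), so both starts had an entry in replicates 2 and 3, at places that differed between them. The entry in replicate 1 overlapped an exon of Ogdh, the oxoglutarate dehydrogenase gene, as well as Cpr73D. Cpr57A, by contrast, had the best rank of any Cpr gene, 4461 in replicate 2 (signal 33.4, 482 bp downstream), an entry at nearly the same place in replicate 1 (24.5, 479 bp downstream) and none in replicate 3.

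The promoters of Cpr23B, Cpr35B and Cpr73D are shown for reading the letters at their starts. Each line holds 100 bases on the strand of the gene, 60 before the TSS and 40 from it, from the Release 6 (dm6) genome of RefSeq, and capitals mark the TATA box letters TATAAA. They cover chr2L:2838351-2838450 on the plus strand, chr2L:14425150-14425249 on the minus strand and chr3L:16957650-16957749 on the minus strand.
Cpr23B: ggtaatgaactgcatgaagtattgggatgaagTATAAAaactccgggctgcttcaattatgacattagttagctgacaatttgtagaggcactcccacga
Cpr35B: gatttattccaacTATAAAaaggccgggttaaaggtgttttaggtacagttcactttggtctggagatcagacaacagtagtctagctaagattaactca
Cpr73D: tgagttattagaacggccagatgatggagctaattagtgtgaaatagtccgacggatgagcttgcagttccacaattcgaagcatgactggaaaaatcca
TATAAA was present before the start of Cpr23B and Cpr35B and absent from these 100 bases of Cpr73D.

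The weak pooled summits at Cpr genes lay mostly downstream of the TSS and in coding exons, and less clearly so in replicate 1. Of the 17 pooled entries at the 16 genes, 16 (94.1%) were downstream of the TSS, at a median position 180 bp downstream, and 13 (76.5%) were in coding exons. Weak pooled entries at TSSs of all protein-coding genes were downstream in 50% of 4260 and in coding exons in 23.3%. Reproducible summits at protein-coding TSSs were downstream in 16.2% of 1812 and in coding exons in 0.883%, with a median position of −83.5 bp. In the replicate lists, which partly hold the same sites, 66.7%, 80% and 82.4% of the entries at Cpr genes were downstream and 44.4%, 70% and 58.8% were in coding exons in replicates 1, 2 and 3. Base composition moved with these positions. The median GC share within 50 bp of the summit was 55.4% for the pooled entries at Cpr genes, 46.5% for the weak entries at all protein-coding TSSs and 37.6% for the reproducible ones, and its part in the positions was not tested. Gene length and head-to-head neighbours, which differ between Cpr genes and the rest, were not matched here, and their part was not tested either.

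**Figure D3:**
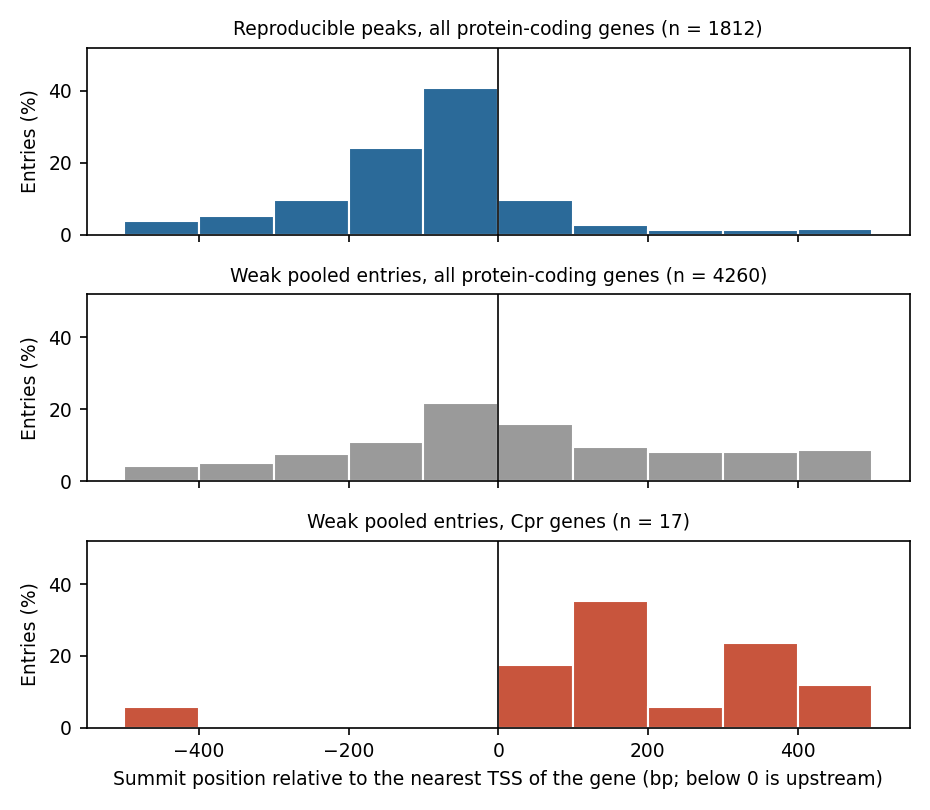
Position of summits relative to the nearest TSS of the gene (horizontal axis, bp, below 0 for upstream) as a share of all entries (vertical axis, percent, bins of equal width), for 1812 reproducible peaks and 4260 weak pooled entries at protein-coding genes and for 17 pooled entries at Cpr genes. Reproducible summits gather just upstream of the TSS, the weak entries lie on both sides, and 16 of the 17 at Cpr genes lie downstream.

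Among the genes with a pooled entry, Cpr35B was followed in signal by Cpr66D at 56.5 (323 bp downstream), Cpr76Ba at 55.1 (293 bp), Cpr49Ag at 54.9 (80 bp) and Cpr30B at 53.1 (394 bp). Each of these summits lay in a coding exon of the gene itself. Cpr66D had entries at 338 and 257 bp in replicates 2 and 3 (signals 23.2 and 22.1) and none in replicate 1. Cpr76Ba likewise had them in replicates 2 and 3 (27.8 at 423 bp and 16.4 at 250 bp), and Cpr30B also (24.5 at 468 bp and 16.1 at 372 bp). For these 3 genes the replicates with an entry were thus 2 and 3.

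Cpr12A (48.6, 155 bp), Cpr72Ec (48.6, 90 bp), Cpr78Cc (46.8, 198 bp), Cpr57A (45.7, 369 bp) and Cpr49Aa (44.6, 457 bp) came next, each with an entry in 2 replicates. The lowest signals belonged to Cpr73D (43.2, 151 bp), Cpr51A (42.7, 347 bp), Cpr64Aa (41.8, 33 bp), Cpr65Az (40.9, 113 bp), Cpr65Ea (40.9, 168 bp) and Cpr64Ac (38.3, 180 bp). The Cpr51A summit lay in a coding exon of CG30197, an overlapping gene. Cpr64Ac, Cpr65Az and Cpr65Ea had an entry in replicate 2 and in no other replicate.

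The coding-exon entries are shown by the 41 bases around the pooled summit of Cpr35B and of Cpr66D, the pair of genes with the highest signals. They are on the strand of each gene and with the summit in the middle. They cover chr2L:14424708-14424748 on the minus strand and chr3L:8640742-8640782 on the plus strand of dm6.
Cpr35B summit: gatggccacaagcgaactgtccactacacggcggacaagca
Cpr66D summit: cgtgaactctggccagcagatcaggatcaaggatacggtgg
None of the letter strings searched below was present in either.

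Where Cpr genes stand close together, a cluster was defined as 3 or more Cpr genes on 1 arm with no gap over 20 kb between neighbours. This gave 10 clusters with 45 Cpr genes and 169 kb of sequence. They contained 1 reproducible summit, or 0.59 per 100 kb, against 2.62 per 100 kb over the arms, a rate at which 4.44 would have been counted. Arm rates were taken over whole arms, where a protein-coding TSS lay up to 5375176 bp from a reproducible summit. Gene density was not matched. Weak entries were not fewer in the clusters than over whole arms. Pooled entries that overlapped no reproducible peak numbered 29 in the clusters, or 17.1 per 100 kb against 14.9 over the arms. Over entries of all strengths, the pooled list had 31 in the clusters, or 18.3 per 100 kb against 17.8. Replicates 1, 2 and 3 had 33, 50 and 30, or 19.5, 29.5 and 17.7 per 100 kb, against 22.4, 22.4 and 20.5. Replicate 2 was above its arm-wide rate and replicates 1 and 3 were below theirs. Of the 29 weak pooled entries 14 (48.3%) were in coding exons, 11 of them in those of Cpr genes, against 28.4% of the weak pooled entries over all arms. Some of the 11 were counted above at Cpr TSSs, so this is not a separate result. The share of coding sequence in the clusters was not matched.

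The 1 summit inside a cluster lay between Cpr65Eb and Cpr65Ec, which point away from each other. It was intergenic and ranked 2988 of 3511 among reproducible peaks, with a signal of 121. Its signals were 28.5, 51.7 and 33.6 in replicates 1, 2 and 3, with ranks of 6259, 2235 and 3566, so it was among the 3511 strongest entries of replicate 2 alone. The 41 bases around this summit (chr3L:7090941-7090981, plus strand, dm6) and around the one nearest to any Cpr gene, by Cpr76Ba (chr3L:19516713-19516753, plus strand), are shown because they are the 2 reproducible sites with a Cpr TSS as the nearest.
Cpr65Eb to Cpr65Ec: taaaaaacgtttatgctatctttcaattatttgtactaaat
Cpr76Ba: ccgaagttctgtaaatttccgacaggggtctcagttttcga
Neither holds any of the letter strings searched below.

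Most reproducible peaks at cluster edges lay within 500 bp of a TSS of another gene. Of the 20 edge peaks, the nearest on each side of each cluster, 16 lay within 500 bp of a TSS, 9 of them upstream and 7 downstream, and 1 had a Cpr TSS as the nearest. For 15 of the 16 the nearest gene was protein-coding. Over the whole list, 1812 of 3511 reproducible peaks lay within 500 bp of a protein-coding TSS, so such places are common beyond cluster edges. Their distance from the outermost Cpr gene ran from 0.819 to 77.6 kb with a median of 20.6 kb, and 5 were within 10 kb. All 20 recurred in the 3 replicate lists, which largely follows from their choice among reproducible peaks. Of the 20, 15 overlapped an entry among the 3511 strongest of every replicate, which at loj may belong to a stronger neighbouring summit. The same share over all reproducible peaks is not given here. From one edge peak to the next across a cluster, the stretch ran from 18.7 kb at Cpr78Ca to Cpr78Cc to 126 kb at Cpr65Ea to Cpr65Ec, where the distance runs past the weak summit inside. By length, such stretches cover much of the arms: intervals of 82.5 kb or more between neighbouring reproducible summits make up 50% of them. This length count includes long stretches of the arms with few peaks. By number, most intervals are shorter, with a median of 14.1 kb, below each of the 10 cluster stretches.

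**Figure D4:**
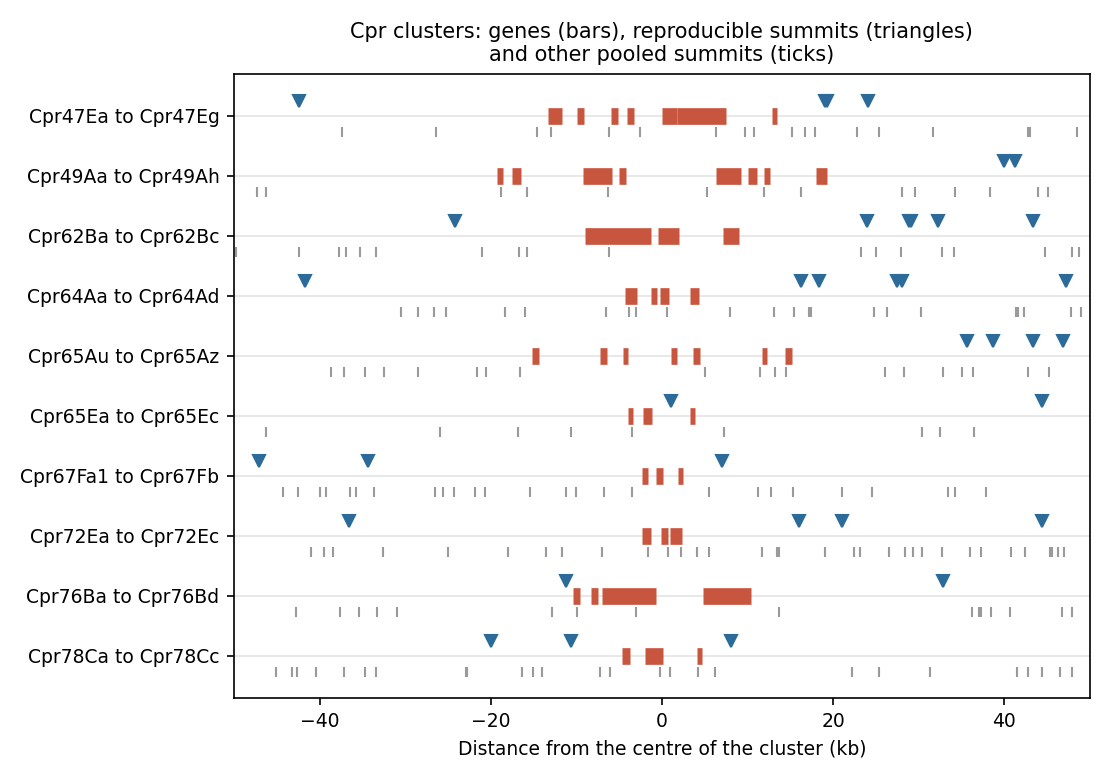
The 10 Cpr clusters on a scale of distance from the centre of each cluster (horizontal axis, kb); bars are Cpr genes, triangles reproducible summits and small ticks the pooled summits that overlap no reproducible peak, and summits beyond the drawn range are left out. A triangle falls among the bars only at Cpr65Ea to Cpr65Ec, and just outside them at Cpr76Ba to Cpr76Bd.

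The closest edge peaks were those of 5 cluster sides. At Cpr76Ba to Cpr76Bd the peak lay 819 bp beyond the 3′ end of Cpr76Ba, in intergenic sequence (3L, 19516657 to 19516855), with a signal of 362. Its signals were 135, 98.3 and 123 in replicates 1, 2 and 3, at ranks 384, 792 and 405, so it was strong in each. On the other side of this cluster the peak was 22.5 kb away, 397 bp downstream of the start of lncRNA:CR44676 (signal 398). At Cpr78Ca to Cpr78Cc the peak in an intron of CG11309, 64 bp downstream of its TSS, was 3.42 kb from Cpr78Cc and had ranks of 118, 223 and 97 in the replicates. The opposite peak, 73 bp downstream of the TSS of CG12974, was 5.97 kb from Cpr78Ca (signal 170). The intervening cluster had no reproducible summit although both flanks were close.

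Aps, a gene of the Nudix hydrolase family, had an edge peak 4.72 kb from Cpr67Fb (signal 136), with replicate ranks of 2839, 6993 and 1614. The far side of Cpr67Fa1 to Cpr67Fb ended at tna, which encodes an SP-RING protein, 32 kb away (signal 130). At Cpr47Ea to Cpr47Eg the peak at −140 bp from the TSS of CG13220 was 5.7 kb from Cpr47Eg (signal 225, ranks 1501, 801 and 1323), and that of CG7737 was 29 kb away (signal 497). All of these summits lay within 500 bp of the TSS of the neighbouring gene.

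The other clusters had no reproducible edge peak within 10 kb of either end. Cpr64Aa to Cpr64Ad ended 11.9 kb from an intronic peak of ImpL2, which encodes a secreted insulin-binding protein (signal 482, ranks 198, 260 and 388), and 37.4 kb from that of Ero1L, an endoplasmic reticulum oxidoreductase gene (signal 119). Cpr72Ea to Cpr72Ec lay between Agpat4, an acyltransferase gene (13.7 kb, signal 224), and CG13058 (34.1 kb, signal 146). Cpr62Ba to Cpr62Bc lay between CG12024 (14.9 kb, signal 252) and lncRNA:CR45687 (15.2 kb, signal 322). None of these clusters held a reproducible summit.

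The 3 longest stretches enclosed Cpr49Aa to Cpr49Ah, Cpr65Au to Cpr65Az and Cpr65Ea to Cpr65Ec. The first lay 41.4 kb from the peak of CG8490 (signal 168) and 20.7 kb from that of DUBAI (signal 688, ranks 126, 109 and 109). Cpr65Au to Cpr65Az lay 36.2 kb from the peak of loj, which encodes a p24 family trafficking protein (signal 119), and 20.5 kb from that of CG10274 (signal 210). The loj summit was the weaker of a pair, at rank 3078 beside a neighbouring reproducible summit at rank 677. Cpr65Ea to Cpr65Ec lay 40.5 kb from the peak of melt, a gene of insulin and TOR signalling (signal 309), and 77.6 kb from an intronic peak of Mp, which encodes a collagen of the multiplexin type (signal 113). The clusters also contained 24 genes without a Cpr symbol, 22 of them protein-coding. Among these were TpnC47D (a troponin C gene), Or49a (an odorant receptor gene) and the Lcp65A larval cuticle genes. Of the 24, 0 had a reproducible summit at a TSS, against 17.1% of all protein-coding genes. This 0 largely follows from the 1 summit inside the clusters, which lay in a cluster without such genes, and adds little to it.

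The letters of Cpr promoters were set beside those of genes with a reproducible peak. Promoters were read from 250 bases before to 50 bases after the TSS on both strands, for 70 Cpr genes, 13945 protein-coding genes and 2135 of these that had a reproducible summit within 500 bp of the TSS at the 5′ end of the gene, the TSS whose letters were read. TATAAA, the letters of the TATA box, was found in 70% of Cpr promoters, 45.8% of all and 45.1% of the occupied ones. On the strand of the gene and starting 40 to 20 bases before the TSS, the usual place of a TATA box, it was found in 48.6% (34 of 70), 7.79% and 2.48%. Thus TATAAA at this place was common among the Cpr genes and rare at occupied promoters.

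The letters of the DNA replication-related element, TATCGATA, were found in 1.43% of Cpr promoters (1 of 70), 9.36% of all and 15.9% of the occupied ones. CGATA, which is part of that string and was counted also inside it, gave 34.3%, 47.4% and 58%, and CAGCTG, an E-box, gave 11.4%, 17.7% and 23.9%. GAGAG, letters bound by GAGA factor, gave 32.9%, 29.7% and 26.7%. The 3 strings with a higher share at occupied promoters than at all promoters thus had a lower share at Cpr promoters. Median promoter GC was 45.5% for Cpr genes, 38% for all and 37% for occupied ones, and its part in these shares was not tested. A match says that the letters are present and nothing about a factor.

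Promoters of 3 of the Cpr genes with TATAAA at the usual place, taken from those with a pooled entry in a cluster, and of Cpr64Ac, a neighbour without it, are set below one another in the same way as above. They cover chr3L:4209139-4209238, chr3L:4212876-4212975, chr3L:16367301-16367400 and chr3L:19518293-19518392 on dm6, all on the minus strand, and capitals mark TATAAA.
Cpr64Aa: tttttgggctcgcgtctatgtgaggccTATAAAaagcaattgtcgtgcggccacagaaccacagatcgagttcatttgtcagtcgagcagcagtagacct
Cpr64Ac: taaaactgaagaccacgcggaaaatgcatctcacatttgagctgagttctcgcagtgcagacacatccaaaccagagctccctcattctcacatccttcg
Cpr72Ec: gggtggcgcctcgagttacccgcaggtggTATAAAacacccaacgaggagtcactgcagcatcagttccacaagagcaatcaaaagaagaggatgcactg
Cpr76Ba: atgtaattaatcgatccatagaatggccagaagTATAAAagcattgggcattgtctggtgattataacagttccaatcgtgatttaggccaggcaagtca
The edge peak of melt is the only one of the 16 edge summits on this arm with CGATA within 20 bases. Its 41 bases (chr3L:7134300-7134340, plus strand, capitals for CGATA) are shown beside those of CG11309 (chr3L:21304574-21304614, plus strand), the strongest edge peak there, which has none of the strings.
melt: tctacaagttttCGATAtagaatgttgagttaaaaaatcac
CG11309: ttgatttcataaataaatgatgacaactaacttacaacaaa

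Other genes of the cuticle were read from lists. Among 25 Tweedle genes, a separate family of cuticle proteins, 0 had a reproducible summit at a TSS and 7 (28%) a pooled one, with a median distance of 22.9 kb. Among 30 other named cuticle protein genes, such as the larval Lcp genes and Pcp, it was 0 and 6 (20%), at 37.9 kb. Of 9 genes of enzymes that harden and colour the cuticle, 0 had a reproducible and 3 (33.3%) a pooled one. The shares over all protein-coding genes were 17.1% and 45%. TSS number and head-to-head neighbours were not matched for these lists. Over protein-coding genes with 1 TSS and no head-to-head neighbour the reproducible share was 6.24%. At that share few genes would be counted in lists this short, so none of their 0 counts can be read. Edg78E, one of the cuticle genes listed, lies inside a Cpr cluster, so the lists are not separate from the clusters. The nearest gene of the Tweedle and other cuticle protein lists was Pcp, a pupal cuticle protein gene inside an intron of a purine synthesis gene, 2419 bp from a reproducible summit.

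Genes of chitin and of transcriptional control did include occupied members. Of 25 genes of chitin synthesis and matrix 2 (8%) had a reproducible summit, and 13 (52%) a pooled one. Cht7, a chitinase gene, had its summit upstream at −124 bp (signal 194) at ranks 1511, 1483 and 1989 in replicates 1, 2 and 3, and mmy, which encodes UDP-N-acetylglucosamine pyrophosphorylase, had it 94 bp downstream (signal 125) at ranks 2619, 3172 and 2841. Of 12 transcription factor genes of the epidermis and moult 1 (8.33%) had one. This was Eip75B, an ecdysone-induced nuclear receptor gene, with a summit 32 bp downstream of a TSS (signal 391) at ranks 354, 521 and 368. Of the same 12 genes 7 (58.3%) had a pooled summit. The shares over all protein-coding genes were 17.1% and 45%, and both lists are too short for a difference from them to be read.

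Few Cpr genes had repeated sequence at their TSS. Within 500 bp of the TSS every word of 50 bases was found at a single place in the genome for 66 of the 70 genes. The share of such words was 98.1% at Cpr67Fa1 and Cpr67Fa2, and 26.4% and 28.5% at Cpr65Ax1 and Cpr65Ax2, which are near-identical copies and had no entry in any list. The lack of entries at that pair is therefore uncertain.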

How the data were processed

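The files used were the authors' peak lists on dm6 for 3 replicates, the pooled replicates and the reproducible set. Per the deposited listing of files, the replicate alignments and 1 further file entered peak calling, and the reproducible peaks passed an irreproducible discovery rate threshold. For the aligner, the caller, their versions and this threshold, names or values were not given in the sources used here. The deposited signal, the deposited −log10 q-value and the summit offset were taken as given. Lists on dm3 were not used, since coordinates were not converted between builds.

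Genes came from Ensembl release 115 without transposable elements (18164 genes), and sequence from RefSeq Release 6. A summit was counted at a gene within 500 bp of any annotated TSS. The strongest entries were the 3511 with the highest signal per replicate. Clusters had 3 or more Cpr genes at most 20 kb apart. With 1 group there was nothing to test between samples, so counts stand beside the same count over protein-coding genes, and SDs are over replicates. The Cpr genes and the 5 other lists were chosen with earlier results of these data known. In those lists dp was not found and AANAT1 was read as speck. Named are Cpr genes with a reproducible or pooled summit at a TSS or a summit in all 3 replicates, the 8 nearest and 4 farthest, edge genes, and at most 6 occupied members per other list. Other genes named were chosen after their values were seen. Alternatives were windows of 200 and 1000 bp, peak overlap by 1 bp, gene ends only, stronger peaks, all genes as background, cluster gaps of 10 and 50 kb, single lists and leaving out each replicate; the head-to-head limit and the check of repeated words were added after seeing the data. On simulated lists all 200 planted summits were recovered. Python 3.11.15, numpy 2.4.6 and matplotlib 3.10.9 were used.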

Additional observations from a re-analysis of the deposited data

How the results depend on the processing

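The count of 0 Cpr genes with a reproducible summit at a TSS stayed at 0 under every alternative run for it, while the share of protein-coding genes ran from 6.24% to 19.7%. Among the strongest entries of the replicates the count of 0 became 1 with a window of 1000 bp, through Cpr73D in replicate 3 (714 bp downstream, signal 35.3, rank 3354), and stayed at 0 under the other settings. The 16 genes with a pooled summit became 9 with a window of 200 bp (30.4% of protein-coding genes), 26 with 1000 bp (56.6%) and 28 in replicate 2 on its own. The median distance of 18.8 kb became 22.9 kb with the 1755 stronger reproducible peaks, against 19.6 kb for protein-coding genes, so most of the gap to the background closed there. Leaving out a replicate meant keeping the peaks found among the top 3511 entries of each of the others by overlap, 2683 to 2722 peaks; the median was then 20.7 to 21.9 kb, against 12 to 12.3 kb. The single reproducible summit inside a cluster was lost, leaving 0, with the stronger peaks, and it failed the same overlap filter whichever replicate was left out (0 to 0), since only in replicate 2 was it among the strongest entries. Pooled summits inside clusters rose from 31 to 50 in replicate 2 on its own. These shifts follow from wider windows, fewer peaks or another list; beyond that the cause was not tested. No paired analysis was possible because there was 1 group and no test. Replicate lists 1 and 2 end at 30000 entries and depth is unknown, so an absent entry does not show absent binding.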

Other observations

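Chemosensory receptor genes of the Or, Gr and Ir families gave a lower share of weak entries than the Cpr genes. Of 179 such genes 2 (1.12%) had a reproducible and 14 (7.82%) a pooled summit within 500 bp of a TSS, against 0 and 22.9% of the 70 Cpr genes, and the median distance to a reproducible summit was 20.4 kb against 18.8 kb. All 5 Cpr genes on arm 3R (Cpr92A, Cpr92F, Cpr97Ea, Cpr97Eb and Cpr100A, named after their values were seen) had no entry at a TSS in any list; over all Cpr genes 45.7% and over all protein-coding genes 34.9% had none in any replicate.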
